A study of Mus musculus with 6 samples.

Results

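Keratins are the intermediate filament proteins of epithelial cells. A type I keratin pairs with a type II keratin, and the pairs assemble into the filaments that give an epithelial cell its mechanical strength and anchor it to desmosomes. In the prostate, the basal cells lining the basement membrane are known for Krt5, Krt14 and Krt15, whereas the secretory luminal cells facing the duct are known for Krt8 and Krt18. The keratins examined here were all genes of the expression table whose symbol is Krt followed only by a number, which gave 47 of 34745 genes, 26 of type I and 21 of type II. This takes in the whole family rather than basal and luminal keratins alone, since 22 of the 47 are keratins of the hair follicle, hair shaft or nail. Of the genes, 25 lie on chromosome 11 and 22 on chromosome 15 of GRCm38, and Krt18 is the type I keratin that lies on chromosome 15, 23873 bases from its type II partner Krt8.

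RNA was sequenced from prostate tissue of 6 male C57BL/6 mice. Which lobes of the gland were taken is not given in the sources used here. The 3 mice of the T + E2 group carried a subcutaneous slow-release pellet of testosterone and estradiol, renewed monthly, for 12 weeks as a model of benign prostatic hyperplasia. The 3 mice of the CON group had the skin incision and its closure without a pellet. No allele distinguished the groups, and both hormones were given together, so an effect of either alone cannot be told apart.

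Each library held 14816146 to 16555549 counts on genes, of which 29264 to 37576 fell on keratins. The prostate marker Pbsn (probasin, an androgen-driven secretory protein) was present at 12360 to 16650 CPM in CON mice and 1259 to 1754 CPM in T + E2 mice, where CPM are TMM-normalized counts scaled to library size. Both replicates numbered 2 stood apart. CON replicate 2 held 10300 CPM of 6 seminal vesicle genes, against 3.84 and 0.629 CPM in the other CON mice, and 269 CPM of adipocyte genes, against 52 and 67.6 CPM. T + E2 replicate 2 held 642 CPM of the seminal vesicle genes, against 3.32 and 1.47 CPM, and single urothelial and squamous genes described with Krt20. The log2 fold changes of the called keratins and of the marker gene Psca are therefore also given without both of these libraries. Values of other genes, shares and summed levels include them unless stated.

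Expression was compared by edgeR's quasi-likelihood test on the counts of all 15580 genes with enough reads, with Benjamini-Hochberg adjustment over all of them. Positive log2 fold changes mean higher expression after T + E2. A gene is called changed at an adjusted p under 0.05, and is a differentially expressed gene (DEG) if its log2 fold change also exceeds 1 in size. Of the 47 keratins, 16 had enough reads to be tested, 8 of each type. Krt7 and Krt78 were upregulated and Krt23 and Krt18 were downregulated. The other 12 tested keratins, among them Krt5, Krt14, Krt15 and Krt8, were not called. Thus 2 of 16 were called higher, where 10.4% of all tested genes were, and 2 of 16 lower, where 9.25% were. Krt7 and Krt78 were also DEGs (4.27% of all tested genes were higher DEGs), and so was Krt23 (3.38% were lower DEGs). In 8 of the 16 keratins the values of the 3 T + E2 mice did not overlap those of the 3 CON mice, against 40.7% of all tested genes. The median log2 fold change was 0.13 over the 16 tested keratins and -0.002 over all tested genes. The share of keratins called in each direction was thus near that of all tested genes, and what follows concerns single genes and the balance between them.

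Sequences before a transcription start of the 4 called keratins, and of Krt8 as the partner of Krt18, are shown because the treatment was a pair of steroid hormones whose receptors bind known DNA motifs. They are the bases before the RefSeq transcription start on GRCm38.p6, read 5′ to 3′ along the strand of the gene, cut where the first exon of a coding transcript begins in GENCODE M21. For Krt7 other transcripts in M21 start further upstream, so its window lies within the span of the gene. Capitals mark the androgen receptor half-site AGAACA or the estrogen receptor half-site GGTCA, each on either strand.
Krt7 (chr15:101412153-101412401, plus strand): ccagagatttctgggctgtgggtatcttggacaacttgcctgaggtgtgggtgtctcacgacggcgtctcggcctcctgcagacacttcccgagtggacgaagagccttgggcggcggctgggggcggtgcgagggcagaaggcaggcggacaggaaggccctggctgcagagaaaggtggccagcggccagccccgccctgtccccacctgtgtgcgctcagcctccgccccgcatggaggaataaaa
Krt78 (chr15:101954288-101954537, minus strand): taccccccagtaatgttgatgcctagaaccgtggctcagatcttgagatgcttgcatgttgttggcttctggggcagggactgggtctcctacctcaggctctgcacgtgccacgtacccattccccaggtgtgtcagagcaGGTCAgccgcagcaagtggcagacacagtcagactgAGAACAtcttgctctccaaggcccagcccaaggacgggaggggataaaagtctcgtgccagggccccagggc
Krt23 (chr11:99493138-99493370, minus strand): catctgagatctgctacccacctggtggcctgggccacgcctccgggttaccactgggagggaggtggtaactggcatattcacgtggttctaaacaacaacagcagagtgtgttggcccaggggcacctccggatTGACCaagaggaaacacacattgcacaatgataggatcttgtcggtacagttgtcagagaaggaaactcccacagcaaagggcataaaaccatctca
Krt18 (chr15:102027966-102028179, plus strand): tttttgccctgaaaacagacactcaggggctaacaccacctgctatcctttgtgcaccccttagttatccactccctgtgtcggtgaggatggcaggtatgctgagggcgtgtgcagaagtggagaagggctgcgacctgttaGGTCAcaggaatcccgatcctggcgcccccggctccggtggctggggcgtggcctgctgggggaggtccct
Krt8 (chr15:102004483-102004592, minus strand): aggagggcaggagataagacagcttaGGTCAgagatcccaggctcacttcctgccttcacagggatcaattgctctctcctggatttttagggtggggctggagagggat

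These windows differed in the half-sites they hold. The 250 bases before the start of Krt78 contained both half-sites, AGAACA beginning 72 bases and GGTCA beginning 108 bases before the start. Krt23, Krt18 and Krt8 each held 1 GGTCA half-site, which began 114, 107 and 224 bases before the start. All these distances are counted from the RefSeq start, in the uncut windows of 250 bases. The stretches shown above for Krt23, Krt18 and Krt8 are cut to 233, 214 and 110 bases, so they end before that start. The window of Krt7, which precedes 1 of its annotated starts, held neither half-site. Over all 32851 RefSeq promoter windows of 250 bases, 16.1% held AGAACA and 35.2% held GGTCA, so a single match is common. Neither full palindrome, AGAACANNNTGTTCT or GGTCANNNTGACC, was found before any of the 34 keratins with a RefSeq window (0.00913% and 0.0639% of all windows). The TATAAA motif, searched on the strand of the gene, was more frequent before the untested keratins, counting exact matches only. It was present before 1 of the 9 tested keratins with a window (Krt10) and before 13 of the 25 untested ones, against 7.59% of all windows. These are matches of letters in a short window and say nothing of binding. No window was used here for Krt15, Krt19, Krt17, Krt4, Krt80, Krt1 and Krt222.

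Of the simple epithelial keratins, which line single-layered and secretory epithelia, Krt7 rose and Krt18 fell, while Krt8 and Krt19 were not called. Krt7 (ENSMUSG00000023039, chromosome 15, 101411043 to 101430313) is a type II keratin of ducts and of the urothelium. It measured 18.5, 37.1 and 18.3 CPM in CON replicates 1 to 3 and 172, 245.9 and 192 CPM in the T + E2 replicates. Every T + E2 mouse was well above every CON mouse, and within both groups replicate 2 was the highest. The change was 8.26-fold (95% interval 5.16 to 13.2), a log2 fold change of 3.05 with a standard error of 0.29 and an edgeR adjusted p of 0.000416. It was 3.47 on the log2 scale without CON replicate 2, 2.89 without T + E2 replicate 2 and 3.31 without both (edgeR adjusted p = 0.000262). Krt7 overlaps the antisense gene Gm671, its longest coding transcript shares a stretch of up to 191 bases at 90% identity or more with transcripts of 81 other genes, and whether counting used the strand is not given in the sources used here. In RNA from mixed tissue, the number of cells of a type and the RNA per cell cannot be told apart. The same holds for the keratins that fell, where fewer cells and less RNA per cell would look alike.

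Krt18 (ENSMUSG00000023043, chromosome 15, 102028216 to 102032026), the type I keratin of luminal cells, had the most keratin reads for the CON group. Its CON values were 876, 852 and 961.3 CPM and its T + E2 values 608.3, 590.5 and 650.6 CPM. All 3 T + E2 mice lay below all 3 CON mice, and the spread within each group was small beside the gap. The T + E2 level was 0.688 times the CON level (95% interval 0.589 to 0.803), a log2 fold change of -0.54 with a standard error of 0.097 and an edgeR adjusted p of 0.00704, short of the DEG threshold. Without both replicates numbered 2 the log2 fold change was -0.55 and the call was lost (edgeR adjusted p = 0.0558). 

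Krt8 (ENSMUSG00000049382, chromosome 15, 101996711 to 102004342), the obligate type II partner of Krt18, did not follow it to a call. It measured 299.6, 373.3 and 412.6 CPM in CON mice and 331.6, 319.6 and 329.8 CPM in T + E2 mice. The T + E2 values fell inside the CON range. The log2 fold change was -0.15 (95% interval -0.44 to 0.14, edgeR adjusted p = 0.449), an interval that overlaps that of Krt18 (-0.76 to -0.32), and the difference between the partners was not tested. Reads of both could be shared with pseudogenes, since the transcript of Krt8 is 98.6% identical to Krt8-ps over 941 bases and that of Krt18 90.5% to Gm5200 over 1267 bases. Expressed per length as FPKM (fragments per kilobase of gene, scaled to library size), Krt18 stood at 3.77, 2.94 and 3.00 times the level of Krt8 in CON mice and at 2.37, 2.38 and 2.54 times in T + E2 mice, without overlap.

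Krt19, a type I keratin without a fixed partner that occurs in both luminal and intermediate cells, measured 556.9, 604.6 and 675.5 CPM for the CON group and 725.4, 661.9 and 650.1 CPM for the T + E2 group. These ranges overlapped, and the log2 fold change of 0.15 was not called (95% interval -0.10 to 0.40, edgeR adjusted p = 0.36). Krt20, the keratin of superficial urothelial and of gut epithelial cells, was too low for the test and is described with the untested keratins.

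**Figure D1:**
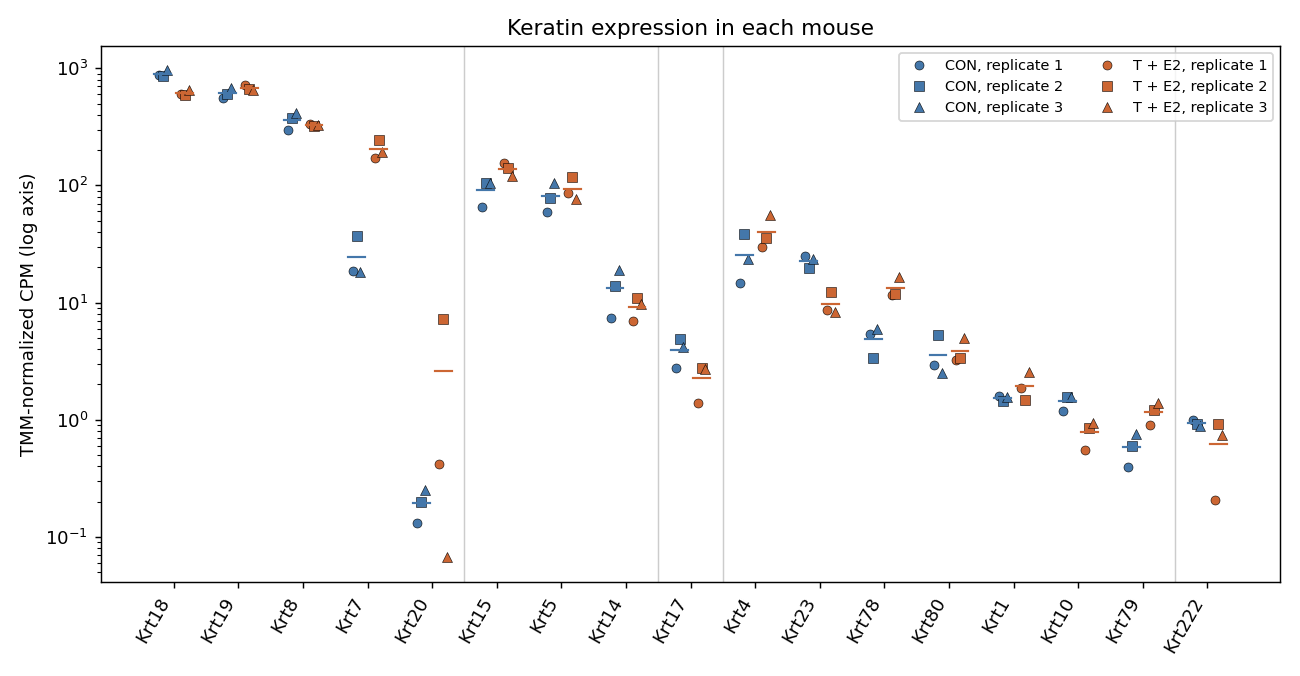
TMM-normalized CPM on a log axis for the 16 tested keratins and Krt20 in each mouse (circle, square and triangle for replicates 1, 2 and 3; blue for CON, orange for T + E2; short lines for group means, n = 3), with vertical lines between simple epithelial, basal, stress, squamous and barrier, and atypical keratins. Krt7 was 18.3 to 37.1 CPM in CON mice and 172 to 245.9 CPM in T + E2 mice, whereas Krt18 was lower in every T + E2 mouse and Krt20 was high in T + E2 replicate 2 alone.

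None of the 3 basal keratins was called. Krt5 (ENSMUSG00000061527, chromosome 15, 101707070 to 101712891), the type II keratin of basal cells, had 58.8, 78.5 and 104.7 CPM in CON mice and 86, 117.4 and 77.3 CPM in T + E2 mice. The groups overlapped, and the log2 fold change of 0.21 had a 95% interval from -0.31 to 0.74 (edgeR adjusted p = 0.542), so a rise to 1.67-fold or a fall to 0.807-fold lies within the interval. Krt14, its type I partner, had 7.42, 13.9 and 18.9 CPM against 6.99, 10.8 and 9.81 CPM. It overlapped as well, with a log2 fold change of -0.54 (edgeR adjusted p = 0.274), and passed the threshold only when CON replicate 1, the lowest CON mouse, was left out (-0.83, adjusted p = 0.0488).

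Krt15 (ENSMUSG00000054146, chromosome 11, 100131758 to 100135928), a type I keratin of basal cells that is often tied to progenitor cells, came nearest to a call of the 3. Its values were 65.4, 105.3 and 105.8 CPM in CON mice and 154.2, 141.7 and 121.3 CPM in T + E2 mice. All T + E2 mice lay above all CON mice, with CON replicate 1 the lowest. The level was 1.51-fold higher (95% interval 1.11 to 2.04, log2 fold change 0.59, standard error 0.19), which missed the threshold in edgeR (adjusted p = 0.0628) and passed it in DESeq2 (adjusted p = 0.00893). Basal markers outside the keratins gave 2 calls among 12 tested genes, both higher (10.4% of all tested genes were called higher), with a median log2 fold change of 0.158. Trp63, the transcription factor that defines basal cells, rose from 25.8 ± 2.32 to 38.4 ± 3.98 CPM (SD, n = 3 each; log2 fold change 0.57, edgeR adjusted p = 0.0108). Its call held with each mouse left out (edgeR adjusted p up to 0.0365) but was lost in another alternative refit. The integrin Itga6 had a log2 fold change of -0.13 (adjusted p = 0.376).

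Among the stress keratins, Krt17, a type I keratin induced in wounded and hyperproliferative epithelium, had 2.78, 4.86 and 4.21 CPM for the CON group and 1.38, 2.74 and 2.74 CPM for the T + E2 group. The groups did not overlap, although the gap between CON replicate 1 and the highest T + E2 mouse was small, and the log2 fold change of -0.78 was not called (edgeR adjusted p = 0.136). The Krt17 transcript is 91% identical to that of Krt14 over 756 bases, so reads of the pair could be shared. Krt16, of the same class, had 6 counts in CON replicate 2 and none in the other mice.

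The keratins grouped here as those of stratified, barrier-forming epithelia gave calls in both directions, and the lower call was Krt23 alone. Of 14 in this class 7 were tested, with 1 called higher and 1 lower. Krt78 (ENSMUSG00000050463, chromosome 15, 101946004 to 101954287), a type II keratin of stratified epithelium, had 5.43, 3.35 and 5.97 CPM in CON mice and 11.6, 11.9 and 16.6 CPM in T + E2 mice. The lowest T + E2 mouse was well above the highest CON mouse. This was a 2.71-fold rise (95% interval 1.83 to 4.03), with a log2 fold change of 1.44, a standard error of 0.25 and an edgeR adjusted p of 0.0057. Without both replicates numbered 2 it was 1.31 (adjusted p = 0.0257).

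Krt23 (ENSMUSG00000006777, chromosome 11, 99477974 to 99493137), a type I keratin grouped here with the same class, moved the other way. It had 24.8, 19.8 and 23.5 CPM in CON mice and 8.58, 12.3 and 8.28 CPM in T + E2 mice. The groups were clearly apart, and the replicates numbered 2 were the lowest of the CON group and the highest of the T + E2 group. The T + E2 level was 0.43 times the CON level (95% interval 0.323 to 0.572, log2 fold change -1.22, standard error 0.18, edgeR adjusted p = 0.00281), and the log2 fold change was -1.52 without both of those mice (adjusted p = 0.00349).

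The remaining 5 of this class were not called. Krt4, a type II keratin of mucosal squamous epithelium that also occurs in the proximal ducts of the prostate, had 14.6, 38.3 and 23.7 CPM against 29.9, 35.4 and 55.4 CPM. The groups overlapped through CON replicate 2 (log2 fold change 0.66, edgeR adjusted p = 0.22). Without CON replicate 2 the log2 fold change of Krt4 was 1.07 (edgeR adjusted p = 0.0597). It was 1.15 without both replicates numbered 2 (edgeR adjusted p = 0.106), not called in either case. Its type I partner Krt13 had at most 2 counts in any mouse, within the limit of detection. Krt79, a type II keratin of ducts opening on the skin, had 0.397 to 0.755 CPM against 0.899 to 1.40 CPM without overlap (log2 fold change 1.00, adjusted p = 0.0874). For the epidermal pair, Krt10 had 1.19 to 1.58 CPM against 0.553 to 0.934 CPM, also without overlap (-0.88, adjusted p = 0.0872), and Krt1 had 1.45 to 1.59 CPM against 1.46 to 2.54 CPM (0.34, adjusted p = 0.427). Each of these 3 rested on at most 38 counts in any mouse. Krt80 had 2.52 to 5.32 CPM against 3.25 to 5.01 CPM (0.11, adjusted p = 0.844), and the atypical type I member Krt222 had 0.88 to 0.993 CPM against 0.207 to 0.913 CPM (-0.57, adjusted p = 0.429).

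**Figure D2:**
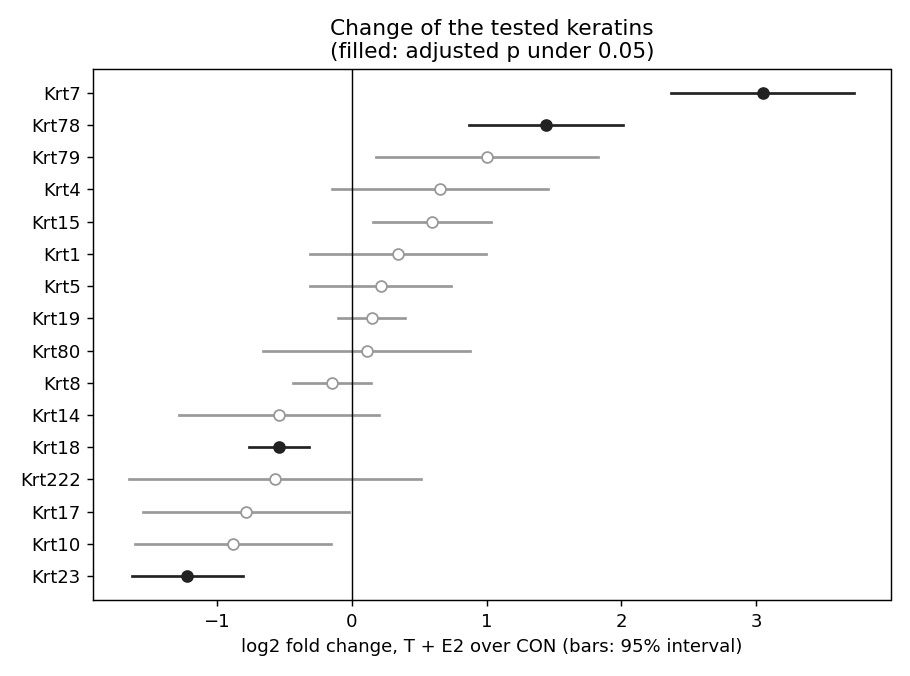
Log2 fold change of the T + E2 over the CON group (horizontal axis) for each of the 16 tested keratins (vertical axis), with 95% intervals from edgeR as bars and filled points for an adjusted p under 0.05. Krt7 (3.05) and Krt78 (1.44) lay to the right of 0 and Krt18 (-0.54) and Krt23 (-1.22) to the left, while the intervals of Krt5, Krt8, Krt14 and Krt19 spanned 0.

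Genes can be compared with each other per length, and on the deposited FPKM scale the order of the keratins was led by the same genes in both groups. In the CON group Krt18 came first at 647.6 ± 30.1 FPKM (SD, n = 3), followed by Krt19 at 265.3 ± 22.1, Krt8 at 202.7 ± 30, Krt15 at 44.4 ± 11 and Krt5 at 37.2 ± 10.1 FPKM. The ranges of Krt15 and Krt5 overlapped, and those of the 4 keratins from Krt18 to Krt15 did not overlap their neighbours above. In the T + E2 group these 5 kept their order, at 434.5 ± 30.8, 286.6 ± 8.85, 178.6 ± 5.33, 65.1 ± 6.06 and 42.1 ± 9.62 FPKM, with no overlap between neighbours. Krt7 moved from rank 9 at 2.91 ± 1.31 FPKM to rank 6 at 23.4 ± 4.68 FPKM, where its range overlapped that of Krt4 in rank 7. The deposited FPKM of Krt7 implies a length of 8594 bases, against 4094 for its longest coding transcript in GENCODE M21. With M21 lengths Krt7 stayed in rank 9 for the CON group, at 6.10 ± 2.75 FPKM, and reached rank 5 for the T + E2 group, at 49.1 ± 9.83 FPKM, where its range overlapped that of Krt5 in rank 6. On that scale Krt18 (423.3 ± 30) and Krt19 (424.5 ± 13.1 FPKM) overlapped in T + E2 mice, while Krt18 led in CON mice.

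The make-up of the keratin transcripts differed between the groups more than their total did. Summed over the family, keratins reached 1146, 1243 and 1340 FPKM in CON mice and 1044, 1067 and 1103 FPKM in T + E2 mice, a ratio of 0.862 without overlap. The ratio was 0.906 with M21 lengths and 0.999 in CPM, both with overlapping groups, so the total had no direction that held on every scale. Within the total, the share of Krt18 was 52.2 ± 2.98% (SD, n = 3) for the CON group and 40.5 ± 1.84% for the T + E2 group. Krt19 took 21.3 ± 0.11% and 26.8 ± 1.49%, Krt15 3.54 ± 0.702% and 6.09 ± 0.726%, and Krt7 0.235 ± 0.106% and 2.18 ± 0.43%. With M21 lengths the shares were 46.8 ± 2.78% and 34.6 ± 1.83% for Krt18 and 0.453 ± 0.204% and 4.004 ± 0.781% for Krt7. On the deposited scale the groups did not overlap for any of these 4, whereas Krt8 held 16.3 ± 1.29% and 16.7 ± 0.187%. These shares sum to a whole, so a smaller Krt18 raises the others by construction.

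Basal keratins together made up 5.53, 7.74 and 8.06% of the keratin FPKM in CON mice and 10.7, 11.8 and 9.04% in T + E2 mice. Relative to the luminal pair, their summed FPKM was 0.0786, 0.115 and 0.119 of that of Krt8 and Krt18 in CON mice and 0.189, 0.212 and 0.152 in T + E2 mice. Both measures were higher in every T + E2 mouse than in any CON mouse, as a description without a test. Of the basal members, the CPM of Krt15 alone did not overlap between the groups, and none of the 3 was called. The summed basal FPKM itself overlapped, at 63.4 to 108 for the CON group and 99.7 to 126.2 for the T + E2 group. Type I keratins exceeded type II keratins 4.46, 3.49 and 3.59 times in CON mice and 3.14, 2.81 and 2.95 times in T + E2 mice.

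**Figure D3:**
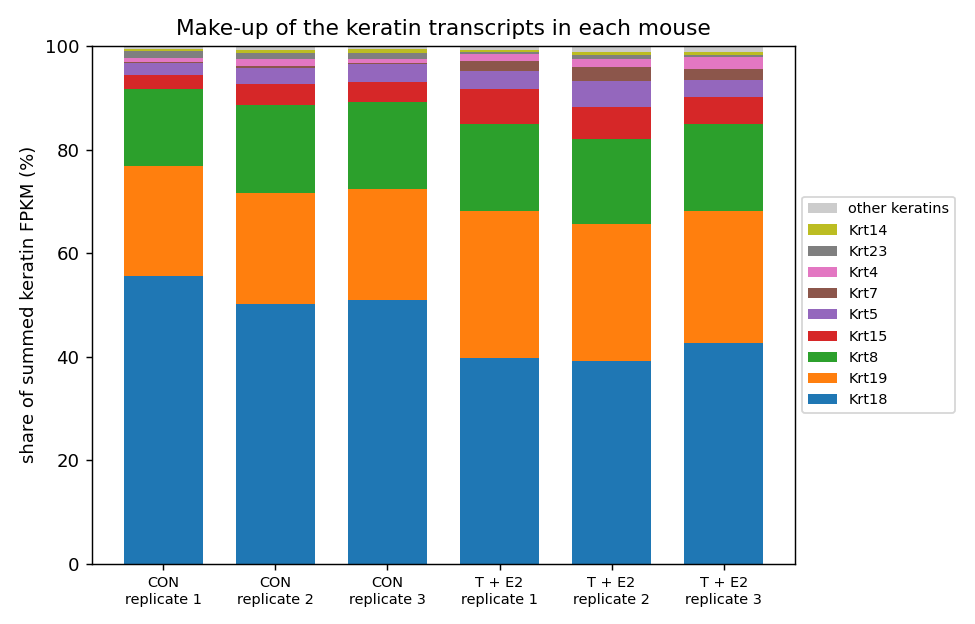
Share of the summed keratin FPKM (vertical axis, percent) taken by each of 9 keratins and by all others in each of the 6 mice (bars). Krt18 took 50.2 to 55.6% in CON mice and 39.2 to 42.6% in T + E2 mice, and the brown segment of Krt7 rose from at most 0.356% to at least 1.83%.

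Of the 31 untested keratins, most stayed at or below the detection limit, a count of 3 per library, which was worth 0.181 to 0.203 CPM before TMM scaling and covers counting error only. In 16 of the 31 no mouse had a count, in 9 the highest mouse had 1 to 3 counts, and 6 exceeded 3 counts in at least 1 mouse. None of the 22 hair and nail keratins passed the filter. Besides Krt20 and Krt16, the 6 were Krt39 (5, 6 and 5 counts in CON mice and 2, 3 and 3 in T + E2 mice), Krt31 (at most 5 counts), Krt77 (at most 4 counts) and the row named Krt83. That row (ENSMUSG00000047641, chromosome 15, 101431490 to 101438804) is called Krt87 in GENCODE M21. It had 1, 0 and 0 counts in CON mice and 10, 4 and 10 in T + E2 mice, a ratio of 23.6 whose 95% interval of 3.85 to 970 covers counting error only. The row ends 1176 bases from Krt7 on the opposite strand, and its transcript is 94.2 to 94.6% identical to those of Krt81, Krt83 and Krt86 in M21. The part of either in its counts was not tested.

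Krt20 (ENSMUSG00000035775, chromosome 11, 99428403 to 99438150) had 2, 3 and 4 counts in CON mice and 6, 120 and 1 in T + E2 mice. A single mouse, T + E2 replicate 2, was thus high, and the other T + E2 mice lay around the CON level. In the same library Upk3a, a plaque protein of the urothelium, had 99 counts against 0 to 5 in the other 5 mice. Snx31 and Grhl3, also urothelial, had 82 counts against 0 to 7 and 33 against 0 to 12. Ivl (involucrin) and Sprr1a, both of the cornified envelope of squamous cells, had 123 counts against 0 to 2 and 388 against 38 to 64. These genes were high in 1 library and give no difference between the groups. Their part in the other keratin values of that mouse was not tested. The log2 fold change of Krt7 was 3.05 with all mice and 2.89 without T + E2 replicate 2. It was 3.31 without both replicates numbered 2.

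**Figure D4:**
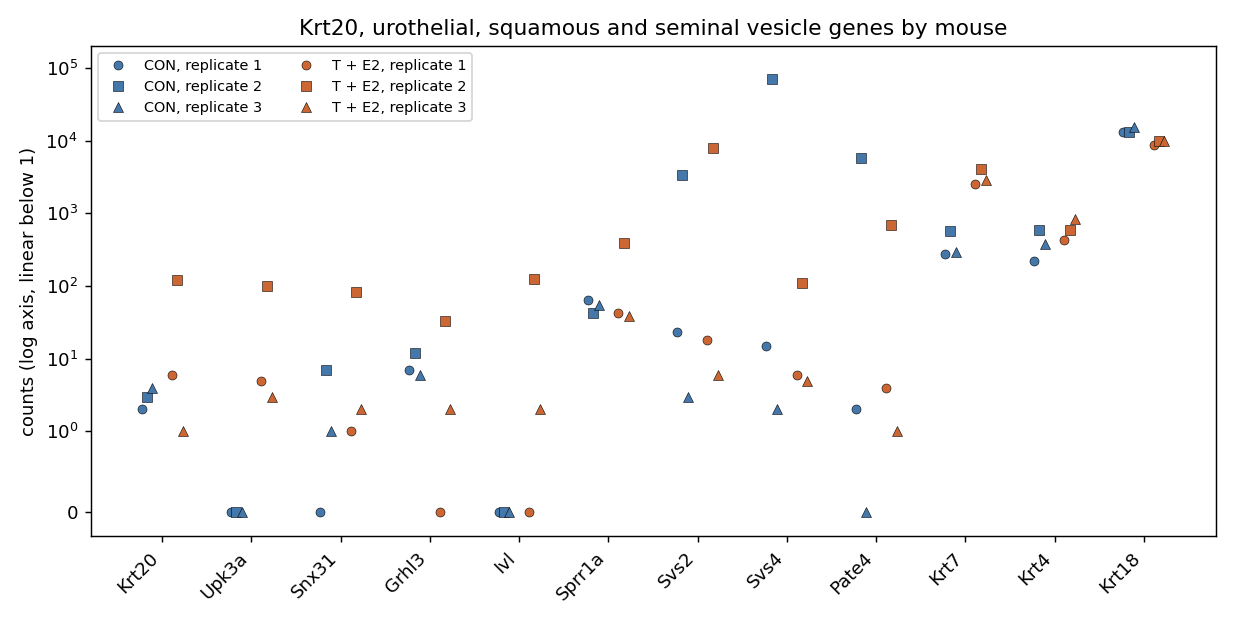
Counts in each mouse (vertical axis, log scale that is linear below 1) of Krt20, 3 urothelial genes, 2 squamous genes, 3 seminal vesicle genes, Krt7, Krt4 and Krt18 (circle, square and triangle for replicates 1, 2 and 3; blue for CON, orange for T + E2). T + E2 replicate 2 stood alone in Krt20 (120 counts), Upk3a (99) and Ivl (123), and CON replicate 2 in Svs4 (69802).

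Markers of other epithelial cells moved beside Krt7. The counts of calls in the lists stand beside 10.4% of all tested genes called higher and 9.25% called lower. Proximal luminal markers, of cells near the urethra, gave 5 calls among 7 tested genes, all higher, with a median log2 fold change of 1.22. Psca, a surface antigen of these cells, had 1.32, 12.8 and 1.95 CPM in CON mice and 232.6, 383.4 and 229.9 CPM in T + E2 mice. As for Krt7, replicate 2 was the highest of each group (log2 fold change 5.72, edgeR adjusted p = 0.00178). It was 7.42 without CON replicate 2, 5.44 without T + E2 replicate 2 and 7.13 without both, called in each case (edgeR adjusted p of 0.0077 or less). Ly6a rose by 1.52 (adjusted p = 0.000199) and Wfdc2 by 1.22 (0.00635). The summed level of the list was 487 to 713 CPM in CON mice and 1010 to 1330 CPM in T + E2 mice. A large part of it was Clu, at 384.6 ± 125.8 CPM for the CON group and 513.4 ± 48.05 CPM for the T + E2 group. Clu overlapped between the groups and was not called (log2 fold change 0.42, adjusted p = 0.201). Of 7 urothelial markers 4 were tested and 3 were called, all higher. Upk1a rose from 373.9 ± 117 to 1306 ± 121.7 CPM (SD, n = 3 each; 1.80, adjusted p = 0.00109), Upk2 by 2.20 (0.00322) and Upk1b by 0.66 (0.0171). Upk3a, which was not tested, had 0 counts in CON mice but was high in T + E2 replicate 2 alone. The summed urothelial level was 599 to 818 CPM for the CON group and 1550 to 1890 CPM for the T + E2 group, most of it Upk1a. The other tested gene, Gata3, was not called, at 172.4 ± 6.05 CPM and 171.4 ± 27.1 CPM (log2 fold change -0.008, adjusted p = 0.97). Of the squamous list 5 of 17 were tested and 2 rose, Spink5 (2.02, adjusted p = 0.00306) and Lgals7 (1.12, 0.0432). Its summed level was 701 to 1560 CPM and 3370 to 4700 CPM, most of it Spink5. Ivl was near 0 outside T + E2 replicate 2, and Lor had at most 7 counts in any mouse. Krt7 is expressed by more than 1 of these cell types, and the part of their share in its rise was not tested.

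Luminal secretory markers were split beside the fall of Krt18, with 3 of 12 called higher (10.4% of all tested genes) and 3 lower (9.25%) and a median of -0.16. Pbsn fell by 3.29 (adjusted p = 2.45e-05), Tgm4, a transglutaminase of the secretion, by 2.91 (0.000158) and Cd24a by 1.30 (0.000696), whereas the secretory protein gene Msmb rose by 1.10 (0.00122). The summed level was 53600 to 65300 CPM for the CON group and 22700 to 28900 CPM for the T + E2 group. This sum is weighted towards the most abundant genes, among them Pbsn, and does not show a fall of the list as a whole. General epithelial markers gave 3 higher and 1 lower call among 14, beside the same shares of 10.4% and 9.25%, with a median of -0.01. Epcam, an adhesion molecule of most epithelial cells, rose from 403.7 ± 17.2 to 915.8 ± 57.9 CPM (SD, n = 3 each; 1.18, adjusted p = 0.000175), Spint2 by 0.89 (0.00139) and Cdh1 (E-cadherin) by 0.34 (0.0462), while the transcription factor Ehf fell by 0.41 (0.0395).

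Desmosomes and plakins, to which keratin filaments attach, gave 1 higher and 2 lower calls among 11 tested genes (10.4% and 9.25% of all tested genes), with a median of -0.09. The plakophilin Pkp2 rose by 0.59 (adjusted p = 0.00469), while the desmocollin Dsc2 fell by 0.53 (0.0145) and the linker Plec by 0.36 (0.0368). The desmosome core genes Dsp and Jup had log2 fold changes of -0.13 and -0.15 (0.462 and 0.421). Outside the keratins, 6 of 14 tested intermediate filament genes were called, all lower (9.25% of all tested genes were), with a median of -0.37. These included the neurofilaments Nefh (-1.74, adjusted p = 0.0266), Nefm (-1.50, 0.00554) and Nefl (-1.35, 0.038), the peripheral neuron filament Prph (-1.33, 0.0333) and Des (desmin) of muscle, whose mean was 319.2 ± 32.1 CPM for the CON group and 245 ± 17.9 CPM for the T + E2 group (SD, n = 3 each). Vim (vimentin), the filament of mesenchymal cells, had a log2 fold change of -0.36 (0.0677). When 1 mouse was left out in turn, the calls of Cdh1, Ehf, Des, Lgals7, Nefh, Nefl, Plec, Prph and Upk1b were each lost without 3 or more of the mice (adjusted p up to 0.132), that of the smooth muscle actin Acta2 without T + E2 replicate 2 (0.0559) and that of Dsc2 without CON replicate 3 (0.0556).

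Among non-epithelial tissues, smooth muscle gave 1 call of 5, Acta2, which fell by 0.50 (adjusted p = 0.0137; 9.25% of all tested genes were called lower), and Myh11 had a log2 fold change of -0.19 (0.297). No gene of the fibroblast, endothelial, leukocyte, skeletal muscle, adipocyte, mesothelial or seminal vesicle lists was called. The epididymal gene Adam7 had no count in CON mice and 8.38 ± 3.10 CPM (SD, n = 3) in T + E2 mice (edgeR adjusted p = 0.00065), and it was the 1 gene of that list with enough reads. It passed that filter through the T + E2 mice alone, the group where it was high, so its call is not independent of the filter.

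**Figure D5:**
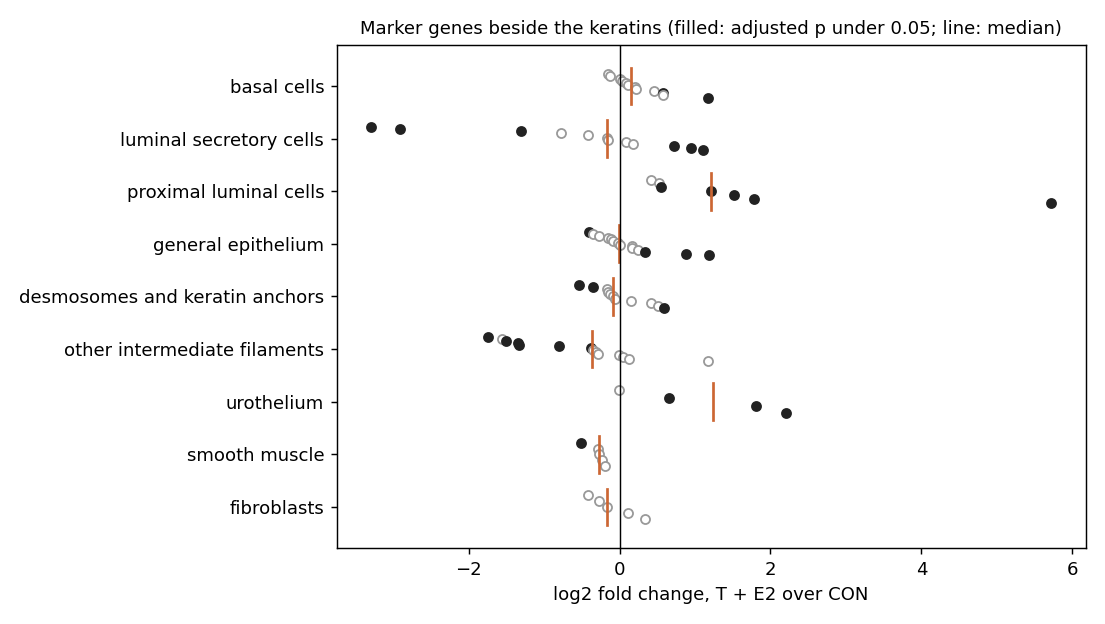
Log2 fold change of the T + E2 over the CON group (horizontal axis) for the tested genes of 9 marker lists (rows), with filled points for an adjusted p under 0.05 in edgeR and orange lines at the median of each list. The medians were 1.22 for proximal luminal and 1.23 for urothelial genes, 0.158 for basal, -0.16 for luminal secretory and -0.37 for other intermediate filament genes.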

How the data were processed

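Total RNA from prostate tissue of 6 mice was made into paired-end TruSeq libraries. Per the submitters' processing notes, TopHat, Bowtie2 and HTSeq were used. Versions, annotation and strand setting are not given in the sources used here, and the methods of the study name DESeq2 for the group comparison. The authors deposited 1 table with whole-number counts per gene without normalization, and FPKM values that they computed from those counts, gene length and library total. Coordinates in the table were compared with GENCODE M21 (GRCm38), in which 32 of the 47 keratins have the same start and end.

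Groups and replicate numbers came from the sample labels. Mice were separate animals, and replicate counts differed beyond sampling noise (chi-square 16.7 to 36.4 per degree of freedom). The main test was run in edgeR 4.0.16 under R 4.3.3 (filterByExpr with a minimum count of 10 and a minimum total of 15, TMM, glmQLFit and glmQLFTest, Benjamini-Hochberg adjustment over 15580 genes). The biological coefficient of variation was 18%. A standard error is the estimate over the root of its F statistic. With 3 mice in each group an exact permutation test cannot give a p below 0.1, so none was used. The script was tested on simulated data. Shares and ratios of FPKM are descriptions without a test. Transcripts were compared with BLAST+ 2.17.0+ (90% identity, at least 100 bases).

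Every keratin with enough reads is named, and others if a mouse had more than 3 counts or their partner is named. Of each of 17 marker lists, the first 2 genes and up to 4 called genes with the largest change were followed, though a few are not reported here. Members and lists were chosen with earlier results of these data known. Alternatives were other scalings, no filter, DESeq2 1.42.0, limma 3.58.1 on log2(FPKM + 0.1) and log2(FPKM + 1), keeping genes at 0.1 FPKM or more in 3 mice, a replicate block, each mouse left out, and, chosen after seeing the data, both replicates numbered 2 left out and M21 transcript lengths.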

Additional observations from a re-analysis of the deposited data

How the results depend on the processing

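The number of called keratins (4) was 3 to 6 under the alternatives, and that of keratin DEGs (3) was 2 to 4. Krt7, Krt78 and Krt23 kept their direction and call under all 14 alternatives, and Krt18 under 13. The calls beyond the 4 were Krt15 (DESeq2), Krt10 (limma on log2(FPKM + 1), -0.31, adjusted p = 0.0493), Krt14 (without CON replicate 1) and the row named Krt83 (no filter, both limma fits, and without CON replicate 1). Depth limits the keratins below about 1 CPM. Of all 15580 tested genes 3061 were called, 1929 to 2741 with 1 mouse left out (1929 without CON replicate 3 and 1978 without T + E2 replicate 2) and 1354 without both replicates numbered 2. DEGs numbered 1191, 972 to 1152 with 1 mouse left out and 561 with limma on log2(FPKM + 1). Of the listed markers 33 were called, 22 to 33 with 1 mouse left out and 19 without both replicates numbered 2. The ratio of summed keratin FPKM (0.862) was 0.83 to 0.897 with 1 mouse left out and 0.999 in CPM. Signs changed for genes that were not called. Krt5 was -0.0029 without both replicates numbered 2. With 1 mouse left out, Krt80 ran from -0.12 to 0.51 and was below 0 without CON replicate 1 (-0.02), CON replicate 3 (-0.09) or T + E2 replicate 3 (-0.12). Cd79a ran from -0.28 to 1.12, Acta1 from -0.51 to 0.18, Ckm from -1.62 to 0.47 and Svs2 from -6.49 to 7.57, and without CON replicate 2 Cd79a was -0.28, Acta1 0.18 and Ckm 0.47, while without T + E2 replicate 2 Cd79a was -0.02, Ckm 0.03 and Svs2 -6.49. Without both, Cd79a was -0.47, Acta1 0.34, Ckm 0.88 and Svs2 -0.0497. The cause was not tested. Beyond these 10 sign changes, the followed markers lost 70 calls, gained 2 and kept their direction and side of the threshold in 575 refits.

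Replicate numbers name different mice. Deviations of mice with the same number correlated at -0.0516, 0.0275 and 0.0463, and not every mouse correlated best with its own number, so they were not treated as pairs. A replicate block gave 4 called keratins, 3 keratin DEGs, 2174 called genes, 1013 DEGs and 27 listed markers.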

Other observations

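Some keratin-related genes fall outside the symbol rule. Krt6a, the type II partner of Krt16 and Krt17 in stressed epithelium, had 5, 7 and 13 counts in CON mice and 13, 7 and 16 in T + E2 mice, and was not called (log2 fold change 0.55, edgeR adjusted p = 0.461). Krt6b and Krt33a had no counts in any mouse, and Krt33b had 1. The gene that GENCODE M21 names Krt83 stands in the table as 5430421N21Rik, with 0, 1 and 1 counts in CON mice and 4, 0 and 4 in T + E2 mice. Krtap17-1, chosen after its values were seen, is a keratin-associated protein gene otherwise known from the hair shaft. It had 12, 19 and 23 counts in CON mice and 1, 1 and 0 in T + E2 mice (ratio 0.0364, 95% interval 0.0043 to 0.138 for counting error only, edgeR adjusted p = 0.00223). The groups did not overlap, at 0.795 to 1.45 CPM and 0 to 0.0692 CPM.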
